A study of Mus musculus with 7 samples.

Results

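The 8 genes described here encode the brain cannabinoid receptor CB1 (*Cnr1*), a protein that binds its tail (*Cnrip1*), and enzymes that make or break down its lipid ligands (*Dagla*, *Daglb*, *Mgll*, *Faah*, *Abhd6* and *Abhd12*). They were taken by gene symbol from the deposited table of expected counts, where all 8 symbols were found, each on 1 of 47729 rows. The counts come from whole forebrain of mice at postnatal day 15, in 4 control samples of genotype Lhx6+/- and 3 mutant samples of genotype Lhx6-/-. Interneurons born in the medial ganglionic eminence (MGE) need *Lhx6*, a LIM-type homeobox gene, to mature. Every mouse was an F1(C57BL/6 X 129Sv) animal carrying the Lhx6tm2Vpa allele, on 1 chromosome in controls and on both in mutants, so no sample was wild type. The allele is constitutive, present in every cell of the animal. Each sample pooled 2 mice, and no drug or other treatment was given according to the labels.

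Endocannabinoids are lipids that neurons release on demand from their membranes. The main one in the brain, 2-arachidonoylglycerol (2-AG), is cut from diacylglycerol in the postsynaptic cell and travels back across the synapse to CB1, which lowers transmitter release through Gi/o proteins. In cortex and hippocampus CB1 is densest on the terminals of cholecystokinin (CCK) basket cells, interneurons born in the caudal ganglionic eminence (CGE), and it is also made, at lower levels per cell, by pyramidal cells, striatal projection neurons and astrocytes. A serine hydrolase in presynaptic terminals and astrocytes, monoacylglycerol lipase, ends most 2-AG signals.

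Libraries summed to between 32556304 and 38069151 expected counts, and values are given as normalized counts, that is, rounded counts scaled by edgeR's TMM factors to the mean library. *Lhx6* itself lay between 476 and 615 normalized counts in the 4 control libraries and between 70.1 and 76.6 in the 3 mutant libraries, in accord with the labels. The columns carry library numbers, 2, 3, 10 and 11 for controls and 5, 12 and 13 for mutants, and cannot be matched to the pools whose sex (4 males and 4 females among controls, 2 males and 4 females among mutants) and RNA integrity (9 to 10) the labels list. On the first principal component, which held 39.6% of the variance, libraries 2, 3 and 5 stood apart from libraries 10 to 13, so differences are also given within each of these runs of numbers. Values for single libraries are always listed in the order just given. Forebrain markers were present, with *Neurod6* of cortical excitatory neurons at 1970 to 2866 normalized counts and *Ppp1r1b* of striatal neurons at 3971 to 8785 over the 7 libraries. In contrast, 8 hindbrain and cerebellar markers summed to at most 2.79 CPM (counts scaled by library size). The labels do not give litters, and p-values measure the spread between pools.

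*Cnr1* was the member that differed clearly between genotypes. Its controls read 5474, 5370, 7189 and 6997 normalized counts, and its mutants 9421, 12816 and 11956. The lowest mutant library lay above the highest control library, and within each genotype libraries 2, 3 and 5 gave lower values than libraries 10 to 13. The mean rose from 6257 ± 969 (SD, n = 4 pools) to 11398 ± 1765 (SD, n = 3 pools). That is 1.82-fold (95% interval 1.45 to 2.30), or 0.87 on the log2 scale with a standard error of 0.147. The adjusted p was 0.0133 (edgeR's quasi-likelihood test, Benjamini-Hochberg over 19684 genes). Libraries 2, 3 and 5 alone gave 0.80 on the log2 scale and libraries 10 to 13 alone gave 0.81, and a term for a difference between the runs was not past the threshold (0.01 on the log2 scale, unadjusted p = 0.960). The call was lost when mutant library 12 was left out (0.77, adjusted p = 0.0632) or mutant library 13 (0.83, adjusted p = 0.0722), and over all 16 other settings the adjusted p ran from 1.37e-06 to 0.0722. In bulk forebrain RNA, more cells that make *Cnr1* and more *Cnr1* RNA per cell cannot be told apart.

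**Figure D1:**
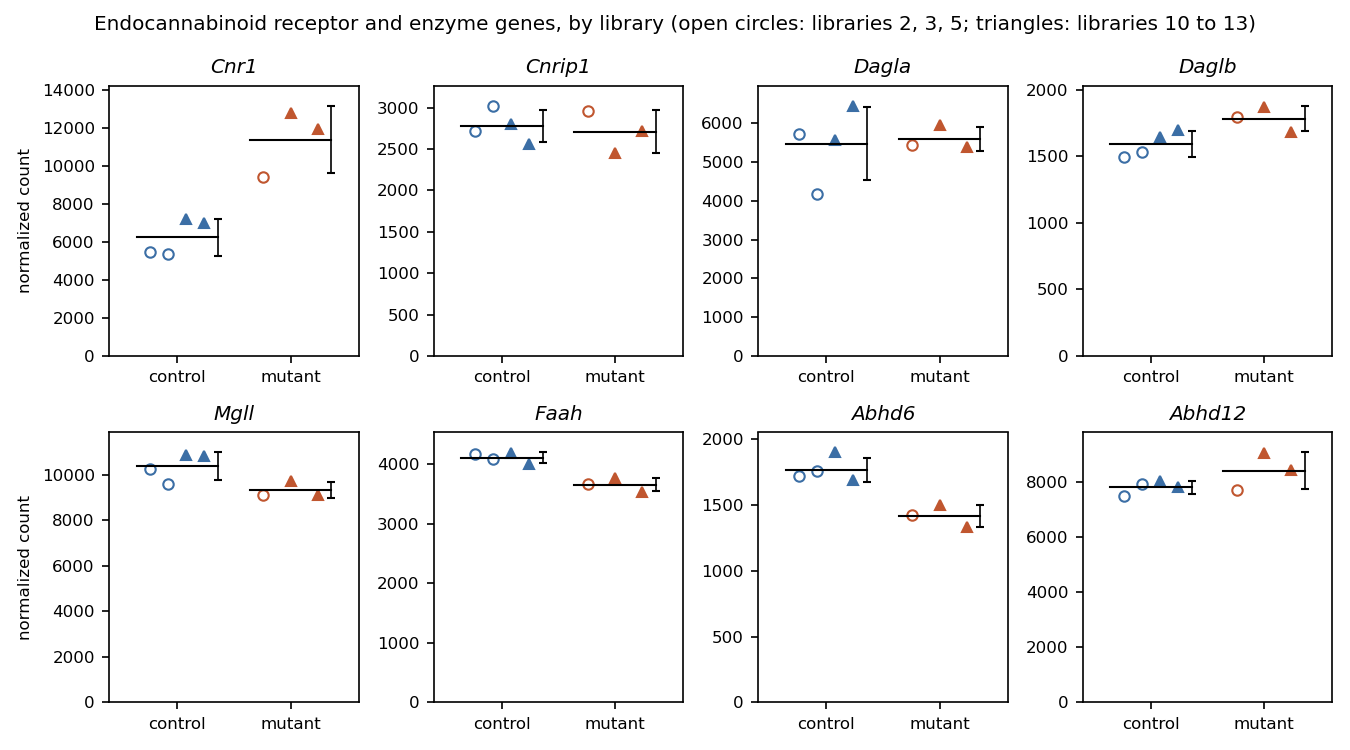
Normalized counts (vertical axes, each from 0) of the 8 genes in control (blue) and mutant (orange) libraries; open circles are libraries 2, 3 and 5, triangles are libraries 10 to 13, horizontal lines are means and bars are SD (n = 4 and 3 pools). For *Cnr1* all mutant points lie above all control points, for *Abhd6* and *Faah* all lie below, and for the other 5 genes the genotypes overlap.

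*Cnr1* (ENSMUSG00000044288) is a plus-strand gene of chromosome 4 (GRCm38, 33924593 to 33948831). Its 3 annotated transcripts share no exon base with another gene and none of its 36-base words occurs in another gene, so its counts are not blurred by a close copy. As *Cnr1* was the member past the threshold, the 199 bases that precede its first annotated exon are shown, from RefSeq's GRCm38.p6 promoter table (chr4:33924394-33924592, plus strand), with CpG dinucleotides in capitals.
Cnr1 upstream: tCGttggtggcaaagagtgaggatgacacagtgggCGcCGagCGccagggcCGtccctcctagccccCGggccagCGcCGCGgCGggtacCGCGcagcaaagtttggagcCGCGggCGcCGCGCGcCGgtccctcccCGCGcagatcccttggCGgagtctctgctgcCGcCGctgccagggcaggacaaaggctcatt
The window holds 24 CpG dinucleotides, against a median of 4 in windows of the same length from 32851 promoter entries, and 71.9% of its bases are G or C, against a median of 51.8%. Letters often looked for upstream of genes that neuronal activity induces were searched on both strands, with the sequence already in view. None of TGACGTCA (the cAMP response element, held by 0.819% of all windows), its half-site TGACG (12.6%), the AP-1 motif TGANTCA (5.55%), the EGR motif GCGTGGGCG (0.347%) or the E-box CACGTG (4.30%) occurs in these 199 bases. The half-site lies within the full element, so those counts overlap, and RefSeq lists 3 start positions for the gene, of which this window covers 1.

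*Cnrip1*, which encodes a protein that binds the C-terminal tail of CB1, did not move with its partner. Its 4 control libraries ran from 2560 to 3020 normalized counts and its 3 mutant libraries from 2452 to 2964, so the genotypes overlapped almost entirely. The log2 fold change was -0.03 (95% interval -0.24 to 0.17, adjusted p = 0.903 from edgeR). Its sign changed within the runs, from 0.05 in libraries 2, 3 and 5 to -0.05 in libraries 10 to 13, and in 14 of the 16 other settings it was negative. Per library and per kilobase of exon, the ratio of *Cnrip1* to *Cnr1* lay between 0.589 and 0.905 in controls and between 0.308 and 0.506 in mutants, with no overlap, a mean difference of -0.90 on the log2 scale. Of the exon bases of *Cnrip1*, 4.97% overlap *Plek* on the opposite strand, a gene of blood and microglial cells, and *Plek* had a log2 fold change of 0.10 (adjusted p = 0.773 from edgeR).

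*Dagla* and *Daglb* encode the diacylglycerol lipases that make 2-AG, of which the alpha enzyme supplies most of it at adult synapses. *Dagla* controls read 5720, 4186, 5576 and 6452 normalized counts, and mutants 5451, 5962 and 5381. All mutant values fell inside the control range, which library 3 stretched at its low end. The log2 fold change was 0.03 with a 95% interval of -0.28 to 0.34 (adjusted p = 0.946 from edgeR), wide enough to hold a change of up to 1.27-fold. *Daglb* ran from 1490 to 1698 in controls and from 1683 to 1869 in mutants, so that only mutant library 13 fell within the control range. Its log2 fold change was 0.16 (95% interval -0.01 to 0.34, adjusted p = 0.321 from edgeR), 0.25 within libraries 2, 3 and 5 and 0.10 within libraries 10 to 13. *Daglb* counts are less certain than the others, because 24.1% of its exon bases overlap *Rac1* on the opposite strand and the counting's use of strand is not given in the sources used here. *Rac1*, a small GTPase gene, had more counts (8477 to 10691 over the 7 libraries) and a log2 fold change of 0.03 (adjusted p = 0.937 from edgeR).

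The 3 hydrolases of 2-AG did not share a direction. *Abhd6* encodes a membrane hydrolase that trims 2-AG near its site of synthesis in postsynaptic neurons. Its controls stood at 1723, 1756, 1898 and 1688 normalized counts and its mutants at 1420, 1501 and 1334. Every mutant library was lower than every control library. The mean went from 1766 ± 91.9 (SD, n = 4 pools) to 1418 ± 83.3 (SD, n = 3 pools). On the log2 scale this was -0.32 (95% interval -0.49 to -0.14, standard error 0.0773). The adjusted p of 0.0552 from edgeR just missed the threshold, and that from DESeq2 was 0.00766, from limma-voom 0.0664 and, from edgeR with a run term, 0.0237. The runs gave -0.29 (libraries 2, 3 and 5) and -0.33 (libraries 10 to 13). Its adjusted p ran from 0.0580 to 0.265 when 1 library was left out, highest without mutant library 13. Of the 36-base words of *Abhd6*, 8.59% occur in *Gm1833*, which had 0 counts in all 7 libraries.

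*Mgll*, the gene of monoacylglycerol lipase, stood at 10245, 9573, 10863 and 10807 normalized counts in controls against 9121, 9719 and 9103 in mutants. Mutant library 12 lay above control library 3, and the other mutant libraries lay below all controls. The log2 fold change was -0.16 (95% interval -0.34 to 0.03, adjusted p = 0.366 from edgeR). *Abhd12* encodes a hydrolase best known for lysophosphatidylserine in microglia, with 2-AG as a further substrate. Its libraries ran from 7498 to 8047 in controls and from 7725 to 9066 in mutants, a log2 fold change of 0.10 (95% interval -0.08 to 0.29, adjusted p = 0.585 from edgeR). Within libraries 2, 3 and 5 the change of *Abhd12* was 0.0013, and within libraries 10 to 13 it was 0.15.

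*Faah* encodes fatty acid amide hydrolase, which breaks down anandamide, the other main endocannabinoid. Controls read 4169, 4095, 4189 and 4000 normalized counts for this gene, and mutants 3675, 3764 and 3539. The genotypes did not overlap, and the spread within each was small. The mean went from 4113 ± 85.3 (SD, n = 4 pools) to 3659 ± 113 (SD, n = 3 pools), that is, to 89.0% of the level in controls. The log2 fold change of -0.17 had a 95% interval of -0.32 to -0.01 before adjustment, and its p of 0.0353 became 0.230 after adjustment over all genes (edgeR). The runs gave -0.17 (libraries 2, 3 and 5) and -0.16 (libraries 10 to 13), and the estimate was negative in all 16 other settings, none of which put it past the threshold (lowest adjusted p 0.106, from DESeq2).

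**Figure D2:**
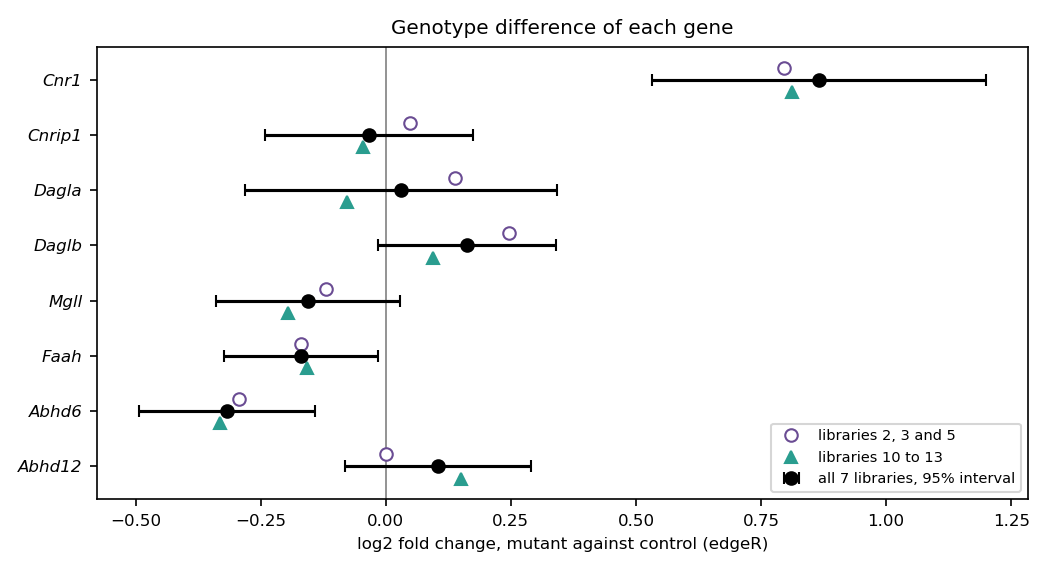
Log2 fold change of the 8 genes, mutant against control (horizontal axis), with black points and 95% intervals from edgeR on all 7 libraries, open circles for libraries 2, 3 and 5 and triangles for libraries 10 to 13. *Cnr1* at 0.87 stands apart from the other genes, which lie between -0.32 and 0.16, and the run values of *Abhd6* and *Faah* lie close to each other.

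Counted together, 1 of the 8 genes was called higher (*Cnr1*) and 0 lower, where 4.85% of all 19684 genes tested were called in either direction, 2.97% higher and 1.87% lower. At an unadjusted p under 0.05 in edgeR, 3 of the 8 passed (*Cnr1*, *Abhd6* and *Faah*), as did 3590 of all 19684 genes tested. DESeq2 called *Cnr1* and *Abhd6* among 8.79% of all genes (3.7% lower). With a run term in edgeR, *Abhd6* was again called, where 5.04% of all genes were called lower. The same held in libraries 10 to 13 alone, where 9.55% of all genes were called in either direction and 4.09% were called lower. The libraries of the genotypes did not overlap for 3 of the 8 genes, 1 higher and 2 lower, and 19.7% of all tested genes showed this (10.7% higher, 9.0% lower). The median log2 fold change of the 8 was -0.0019, and that of all tested genes was -0.013. A term for a difference between the runs was past the threshold for 0 of the 8 genes (edgeR, lowest unadjusted p 0.288, for *Daglb*). The 8 symbols were chosen with earlier results of these data known, so these counts describe the genes and do not test them as a set.

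Levels were compared between genes per length, as RPKM (scaled CPM divided by the kilobases of exon). In controls *Abhd12* was highest at an RPKM of 77.8 ± 2.35 (SD, n = 4 pools) and *Mgll* next at 57.3 ± 3.32. *Cnr1* (27.3 ± 4.22), *Dagla* (26.8 ± 4.62) and *Abhd6* (23.0 ± 1.20) followed, and neighbours among these 3 overlapped in their libraries. *Cnrip1* stood at 19.5 ± 1.35, below every control value of *Abhd6*, then *Faah* at 14.7 ± 0.306 and *Daglb* at 4.67 ± 0.282, neither overlapping its neighbour. In mutants *Cnr1* had a level of 49.6 ± 7.69 (SD, n = 3 pools), which overlapped that of *Mgll* at 51.5 ± 1.94, while *Cnrip1* at 19.0 and *Abhd6* at 18.5 overlapped each other. The ratio of the *Cnr1* level to the *Dagla* level in a library went from between 0.853 and 1.15 in controls to between 1.54 and 1.98 in mutants. The ratio of *Abhd6* to *Mgll* lay between 0.368 and 0.432 in controls and between 0.345 and 0.366 in mutants, a narrow gap, and that of *Dagla* to *Daglb* overlapped. Levels per length depend on which transcripts are counted as the gene's length, and with the longest transcript alone *Cnrip1* ranked above *Cnr1* in controls (36.2 against 30.2).

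**Figure D3:**
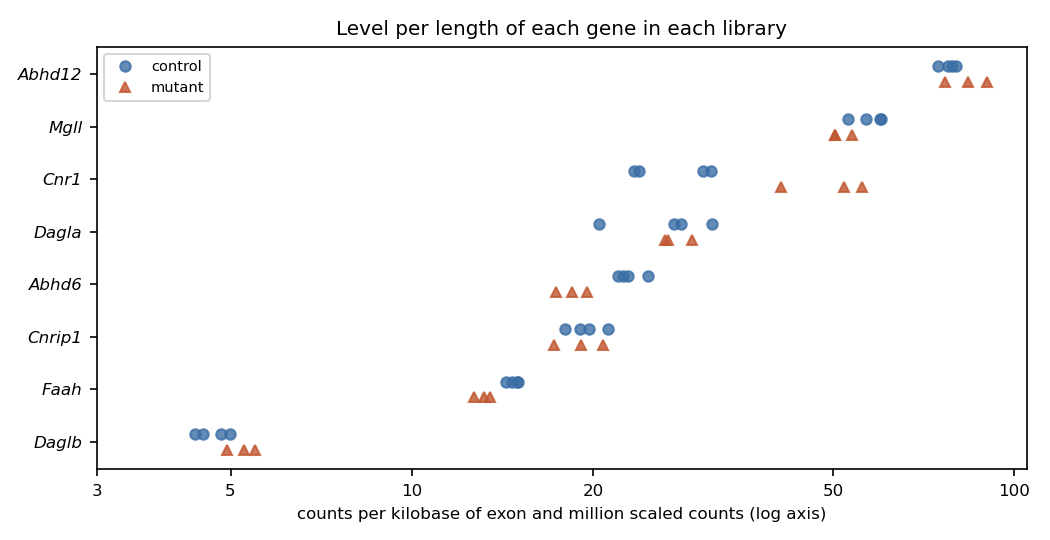
RPKM level of each gene, from scaled counts and exon length (horizontal axis, log scale), 1 point per library, circles for controls and triangles for mutants. The *Cnr1* triangles, from 41.0 to 55.8, reach the range of *Mgll*, and *Daglb* is lowest in every library.

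A wider list of 32 genes of the pathway was examined in the same fit, of which 30 had enough counts to be tested (*Trpv1* and *Alox15* did not, at no more than 13.1 normalized counts in any library). In that fit 1 was higher, *Ptgs2*, and 1 lower, *Grm5*, against the background of 2.97% and 1.87% of all genes, and the median log2 fold change was -0.050. *Ptgs2* encodes cyclooxygenase 2, which neuronal activity induces and which oxidizes both endocannabinoids as well as arachidonic acid. Its control libraries held between 224 and 359 normalized counts and its mutant libraries between 1039 and 1970, a difference of 2.26 on the log2 scale (standard error 0.245) with an adjusted p of 0.00197 by edgeR. *Grm5* encodes the metabotropic glutamate receptor mGluR5, which drives 2-AG synthesis through Gq and phospholipase C. Controls held 5867, 4719, 5802 and 5599 normalized counts and mutants 3368, 4322 and 4006, with no overlap. Its difference of -0.50 on the log2 scale (standard error 0.115), with an adjusted p of 0.0466 by edgeR, kept its direction throughout, but its call was lost in 7 of the 16 other settings, among them 6 of the 7 that left out 1 library, where the adjusted p reached 0.155 without mutant library 13.

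Other genes upstream of diacylglycerol had estimates in both directions. The muscarinic receptor genes *Chrm3* and *Chrm1* had values of -0.41 (adjusted p = 0.139) and -0.20 (adjusted p = 0.370), neither past the threshold in edgeR, and the phospholipase genes *Plcb1* to *Plcb4* ran from -0.26 to 0.21, none past it. With a run term in edgeR, *Grm5*, *Chrm3*, *Plcb4* and *Napepld* were among the genes called lower and *Ptgs2*, *Naaa* and *Abhd4* were called higher, with 11.2% of all genes called in that fit.

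Among the genes of anandamide metabolism, *Napepld*, whose product releases anandamide from its phospholipid precursor, held 383, 368, 505 and 470 normalized counts in controls. Its mutants, at 322, 300 and 276, lay below all controls. Its log2 fold change was -0.53 (adjusted p = 0.0790 from edgeR, 0.0124 from DESeq2). The runs differed in size, at -0.22 in libraries 2, 3 and 5 and -0.75 in libraries 10 to 13. *Abhd4* and *Gde1*, of the alternative route, had estimates of 0.27 each, and *Naaa*, a lysosomal amidase, had 0.36, with adjusted p-values of 0.180, 0.283 and 0.149. *Cnr2*, the gene of the receptor CB2 of immune cells and microglia, was low in every library, at 11.5 to 26.8 normalized counts. Its estimate of 0.49, among the 5 largest of the list in size, had an adjusted p of 0.536. The 8 genes whose products bind or couple CB1 (*Sgip1*, *Gprasp1*, *Arrb1*, *Arrb2* and the Gi/o subunit genes *Gnai1*, *Gnai2*, *Gnai3* and *Gnao1*) lay between -0.21 and 0.28, none past the threshold, and the 3 carrier genes *Fabp3*, *Fabp5* and *Fabp7* between -0.22 and 0.20.

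**Figure D4:**
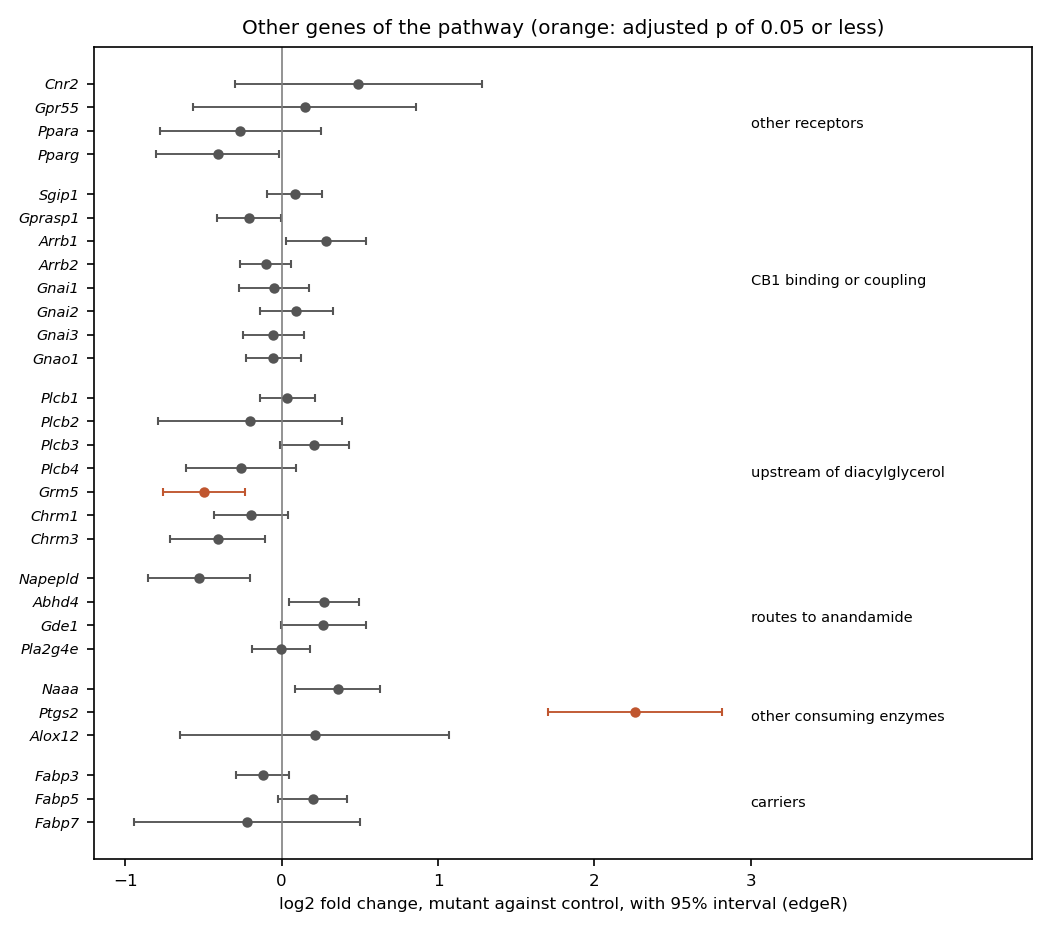
Log2 fold change, mutant against control, with 95% intervals from edgeR (horizontal axis) for tested genes of the wider pathway, grouped by role; orange marks an adjusted p of 0.05 or less. *Ptgs2* at 2.26 lies far to the right, and *Grm5*, *Chrm3* and *Chrm1* lie to the left of 0, from -0.50 to -0.20.

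Markers of cells that hold CB1, or that could alter its share of the RNA, were read beside it. Of 10 markers of CGE and CCK interneurons, 3 were higher and 0 lower, and their summed level lay between 429 and 446 CPM in controls and between 637 and 655 CPM in mutants. Most of that gap was *Cck*, and without it the other 9 summed to between 219 and 229 CPM in controls and between 259 and 261 in mutants. *Cck*, the peptide of the basket cells and also made by pyramidal cells, averaged 7511 ± 175 (SD, n = 4 pools) normalized counts among controls and, among mutants, 13686 ± 376 (SD, n = 3 pools), 0.87 apart on the log2 scale (standard error 0.0706, adjusted p = 0.000641 from edgeR). *Vip* and *Adarb2* were the others called, at 0.94 and 0.63. With 1 library left out, their adjusted p reached 0.0804 and 0.0554, so these calls could be lost, while that of *Cck* reached only 0.00554. *Slc17a8*, *Sncg* and *Htr3a*, which mark subsets of CCK cells, had values of -0.01, 0.66 and 0.37, none past the threshold. *Nr2f2* and *Prox1*, transcription factor genes of CGE interneurons, had negative estimates of -0.41 and -0.07 (adjusted p = 0.305 and 0.832 from edgeR). Of 7 markers of MGE interneurons 5 were lower, among them *Lhx6*, the mutated gene itself. The sum of the 7 lay between 438 and 482 CPM in controls and between 224 and 259 in mutants. *Sst* had the largest fall in counts among them, from a mean of 5356 normalized counts in controls to 588 in mutants. Among markers of cortical excitatory neurons, *Rorb* was lower, at 1904 to 2392 normalized counts in controls and 1453 to 1712 in mutants. Its adjusted p of 0.0351 from edgeR reached 0.143 with 1 library left out. *Slc17a7*, the vesicular glutamate transporter gene of these neurons, ran from 62495 to 73436 in controls and from 73564 to 90141 in mutants (adjusted p = 0.203 from edgeR). None of 7 striatal markers passed (314 to 471 CPM against 372 to 549).

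Among glia, 1 of 8 astrocyte markers was higher (*Gfap*, 1.95 on the log2 scale) with sums of 5982 to 8625 CPM in controls and 9409 to 10998 in mutants. The largest part of that sum was *Slc1a2*, which was not called (138448 to 229945 normalized counts against 232566 to 288170, adjusted p = 0.200 from edgeR). *Aqp4* and *Gja1* did not overlap between genotypes (0.59 and 0.30) but were not called. *Aldh1l1*, *Slc1a3*, *Aldoc* and *S100b* overlapped, with log2 fold changes between -0.05 and 0.12. Of 8 oligodendrocyte markers, *Mbp*, *Mag* and *Cnp* were lower, and the sum of the 8 ran from 6767 to 8806 CPM in controls and from 4856 to 6045 in mutants. With 1 library left out, the adjusted p of *Mbp*, *Mag* and *Cnp* reached 0.0624, 0.0722 and 0.0755 (edgeR). Of the 7 microglial markers tested 0 passed, at 370 to 374 CPM against 309 to 364, and of the 8 endothelial markers 0, at 243 to 275 CPM against 306 to 327. Choroid plexus markers, 0 of 5 called, summed to between 129 and 277 CPM and between 63.5 and 212 CPM, and thalamic and hypothalamic markers, 0 of 6 tested, to between 19.0 and 27.4 CPM over all 7 libraries. The part of these shifts in the values of *Cnr1*, *Abhd6* and *Faah* was not tested.

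The genes whose pattern over the 7 libraries was most like that of *Cnr1* were found by the root mean square difference between log2 CPM values centred on the control mean, among 15762 genes with a mean of at least 1 CPM. They were *Irgm1* (a difference of 0.0573), *Slc2a10* (0.0706), *Gucy2e* (0.0911), *Runx1* (0.0953) and *Tor3a* (0.104), against a median of 0.633 over all those genes. Their log2 fold changes between genotypes ran from 0.81 for *Tor3a* to 0.93 for *Slc2a10*, and all were far less abundant than *Cnr1*, with control means of 36.5 to 194 normalized counts. The likeness includes the difference between the runs of library numbers as well as that between genotypes.

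**Figure D5:**
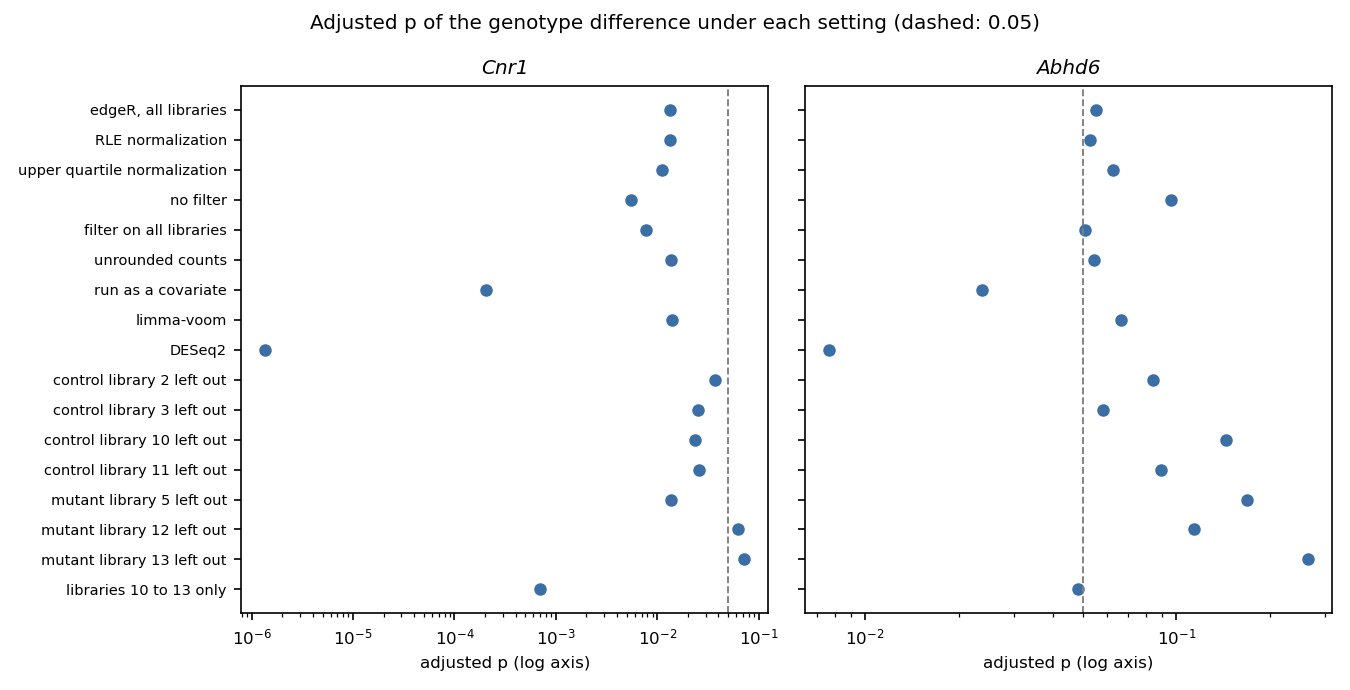
Adjusted p (horizontal axes, log scale, each panel with its own range) of the genotype difference of *Cnr1* and *Abhd6* in the edgeR fit on all libraries and under each of 16 other settings; the dashed line marks 0.05. *Cnr1* crosses the line only without mutant library 12 or 13, and *Abhd6* lies below it only with DESeq2, with the run as a covariate and in libraries 10 to 13 alone.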

How the data were processed

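Forebrain RNA of 7 pools was read as 36 bp single ends. The authors trimmed reads with CutAdapt 1.9.1, aligned them with Bowtie2 2.2.9 to the GRCm38 transcriptome of Ensembl release 84 and deposited RSEM 1.2.31 expected counts per gene, not normalized (versions per the submitters' processing notes). RSEM divides reads among genes they match equally, so overlapping genes and close copies are less certain. The authors' fold changes and p-values, in a further deposited table, were not used; its gene symbols were, as were positions in the deposited annotation. Columns were grouped by the genotype in their names, and 0 columns of per-sample values were left out.

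Counts were rounded. A gene was kept where 3 or more libraries held 10 or more counts (19684 of 47729). TMM factors and edgeR 4.0.16 served for the test (quasi-likelihood F-test, two-sided, R 4.3.3), with p-values adjusted by Benjamini-Hochberg, threshold 0.05. Standard errors are the log2 fold change over the root of F, and 95% intervals use the fit's degrees of freedom, unadjusted. A count of 0 in the smallest library allows 3 counts, or 0.0921 CPM, for counting error only. Replicates differed by more than sampling noise (chi-square per degree of freedom 9.96 to 70.8). Alternatives were DESeq2 1.42.0, limma-voom 3.58.1, RLE and upper quartile factors, other filters, unrounded counts, the run of library numbers and leaving out each library, and libraries 10 to 13 alone, added after seeing the data. Members, lists and markers were chosen with earlier results of these data known. Named genes are the 8 members, pathway genes past the threshold or among the 5 largest changes, called markers, *Lhx6* and the 5 genes nearest *Cnr1*; other pathway genes and markers were named by role after their values were seen. *Itgam*, on 2 rows, was left out. Shared 36-base words came from GENCODE M21 transcripts (GRCm38). Some listed genes are not reported here.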

Additional observations from a re-analysis of the deposited data

How the results depend on the processing

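No paired analysis was possible because the labels give no litters and no pairing of control pools with mutant pools. The count columns also carry library numbers and not the replicate numbers of the labels. The call of *Cnr1* held in 14 of 16 other settings. With 1 library left out, between 0 and 1 members were called higher, 0 without mutant library 12 or mutant library 13, and between 0 and 2 genes of the pathway list were called lower. 1 member, *Abhd6*, was called lower with DESeq2, with the run as a covariate and in libraries 10 to 13 alone. Genes of the pathway list called lower numbered 0 with upper quartile factors, 3 with DESeq2, 5 with the run as a covariate and 5 in libraries 10 to 13 alone, and those called higher numbered 3 with the run as a covariate and 5 in libraries 10 to 13 alone. The cause of these changes was not tested. With the longest transcript as length, control RPKM levels were 36.2 for *Cnrip1*, 9.16 for *Daglb*, 72.9 for *Mgll*, 20.8 for *Faah*, 24.6 for *Abhd6* and 109.8 for *Abhd12*, while those of *Cnr1* and *Dagla* moved by less than 1 SD. The sign held in all 16 settings for *Abhd12*, *Abhd6*, *Cnr1*, *Daglb*, *Faah* and *Mgll*, in 14 for *Cnrip1* and in 13 for *Dagla*. Over all genes, 954 were called in the fit reported here, 302 without mutant library 13, 1731 with DESeq2, 1867 in libraries 10 to 13 alone (9.55% of those tested) and 2205 with the run as a covariate, so the settings that added calls of members also called more genes over all. The interval of *Mgll* includes 0. That of *Faah* does not before adjustment, but its p did not pass after adjustment over all genes.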
